A study of Mus musculus with 8 samples.

Results

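Of the 55487 genes counted in Lewis lung carcinoma (LLC) tumors, 9 make up the core of interferon (IFN) signaling described here and were chosen by name. They are 4 receptor subunits (Ifnar1, Ifnar2, Ifngr1 and Ifngr2), 3 Janus kinases (Jak1, Jak2 and Tyk2) and 2 STAT transcription factors (Stat2 and Stat3). LLC is a mouse lung cancer line, and the 8 tumors grew under the skin of C57BL/6J mice until day 12. In 4 tumors the implanted cells were wild-type, and in the other 4 they were labelled Ago2 knock-out (ΔAgo2). Ago2 belongs to the Argonaute proteins, which hold small RNAs in RNA interference. Per the study's methods the knock-out came from a lentiviral CRISPR guide, puromycin selection and single-cell cloning, with 1 of the clones engrafted, so a property of that clone and the loss of Ago2 cannot be told apart. The host mice kept their own Ago2, and each library was made from a whole tumor with its host cells. In such bulk RNA, fewer cells of a type and less RNA per cell cannot be told apart.

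Type I IFNs bind a receptor made of IFNAR1 and IFNAR2, which carry the kinases TYK2 and JAK1. Type II IFN (IFNγ) binds IFNGR1 and IFNGR2, which carry JAK1 and JAK2. The kinases phosphorylate STAT proteins; STAT2 joins IRF9 in the complex ISGF3, which switches on antiviral genes through a DNA element called ISRE, whereas STAT3 is best known downstream of cytokines of the IL-6 family and of growth factors.

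Library totals ranged from 7903288 counts in wild-type tumor 4 to 268564145 in ΔAgo2-labelled tumor 4, and the 9 genes had between 137 and 74190 counts in a tumor. Ago2 itself stood at 129.9, 195.0, 151.3 and 138.5 CPM (counts per 1e+06 counts of the library after TMM scaling) across the wild-type tumors. It stood at 118.3, 354.7, 215.0 and 270.1 CPM across the ΔAgo2-labelled tumors, and values per tumor are given in the order of tumors 1 to 4 throughout. The log2 fold change was 0.64 (SE 0.30, edgeR adjusted p = 0.205). The groups overlapped and the transcript was not lower in the knock-out, so this measure does not check the label, which is used below as given. Of 24 alternative settings, 2 called Ago2 higher. These were limma voom with quality weights (0.865, adjusted p = 0.0140) and edgeR without ΔAgo2-labelled tumor 1 (0.854, adjusted p = 0.0441). The study measured Ago2 protein in the cell lines by Western blot. The labelled lung carcinoma cells were also looked at through 10 lung epithelial markers, of which 7 passed the count filter and 1 was at 0 in all tumors. Their summed level was 513.1 to 1277 CPM in wild-type and 726.2 to 1267 CPM in ΔAgo2-labelled tumors. Krt8 (means of 315.4 and 424.5 CPM) and Krt18 (479.0 and 516.0 CPM) made up most of it. Napsa had means of 13.1 and 12.7 CPM, whereas Nkx2-1, Sftpc and Sftpb had 0, 3 and 1 counts over all tumors. The sum therefore does not show a lung identity. ΔAgo2-labelled tumor 1 stood apart in the summed level of macrophage markers, at 2853 CPM against 1145 to 1360 CPM in the other ΔAgo2-labelled tumors and 1676 to 1929 CPM in wild-type tumors. C1qa, C1qb and C1qc made up most of its sum, at 921.4, 705.6 and 604.9 CPM. Fcgr1 (98.5 CPM) and Cd14 (78.2 CPM) were also highest in this tumor. Csf1r (164.4 CPM), Adgre1 (47.7 CPM) and Mrc1 (72.3 CPM) lay among the other tumors, and Mertk (5.52 CPM) was the lowest of all. Its summed adipocyte markers, with Cfd the largest part, were 436.8 CPM against 23.6 to 62.6 CPM in the other ΔAgo2-labelled tumors. In wild-type tumors they were 31.6 to 408.1 CPM, highest in tumor 3. Summed pan-leukocyte markers were also highest in ΔAgo2-labelled tumor 1, at 1401 CPM against 852.7 to 1232 CPM in wild-type tumors. Summed fibroblast markers were lower in every ΔAgo2-labelled tumor, at 2323 (tumor 1) to 4677 CPM, than in every wild-type tumor, at 4940 to 7274 CPM. Col3a1 made up most of these sums, at 3762 to 5751 CPM in wild-type and 1407 (tumor 1) to 3701 CPM in ΔAgo2-labelled tumors. Of the 10 fibroblast markers, 1 (Fap) was called lower, against 2.12% of all genes tested. The median log2 fold change was -0.58, with 3 of the 10 (Pdgfra, Postn and Dcn) above 0. Skeletal muscle markers had log2 fold changes below 0 in 10 of 10 (median -3.10), and wild-type tumor 3 stood apart with a sum of 4104 CPM, the others being at 54.2 to 541.5 CPM. Skin keratinocyte markers lay above 0 in 10 of 10 (median 1.14, with Krt10 called), with a sum of 15.4 CPM in wild-type tumor 3 and 177.5 to 912.7 CPM in the others.

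Promoter sequences were read for all 9 genes from RefSeq on GRCm38.p6, in windows from 250 bases before to 50 bases after the annotated start. They were searched on both strands for the core of the ISRE, which is GAAA, any 2 bases and GAAA again (TTTC, any 2 bases and TTTC on the other strand), and for the IFNγ-activated site (GAS), TTCNNNGAA, which reads the same on both strands. The ISRE core lay in 3.443% of 32851 windows of this length and the GAS in 8.298%. Among the 9 genes, Stat2 had the ISRE core, and Ifnar1 and Ifnar2 each had a GAS. These matches are shown, on the + strand with the matched letters in capitals, because they are the letters that the STAT complexes recognise, and a match alone does not show that a factor binds there.
Stat2 ISRE core: gcaccctggTTTCAGTTTCctttcccta
Ifnar1 GAS: gcgggggcgTTCACGGAAggggcgggg
Ifnar2 GAS: gccaaggccTTCCTGGAAgaagagagt
The Stat2 stretch is chr10:128270267-128270294, and its first capital lies at position -222 from the RefSeq start at 128270498. RefSeq and GENCODE place the starts of Stat2 and Ifnar1 at different bases, and the gene spans given further on are from GENCODE. The Ifnar1 stretch is chr16:91485201-91485227, with the first capital at -5 from the RefSeq start at 91485215, and the Ifnar2 stretch is chr16:91372560-91372586, with the first capital at -214 from 91372783. The 2 motifs overlap in none of these stretches, and the other 6 genes had neither motif in the window searched.

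Across genes, levels were compared in TPM, which corrects for gene length. Ifngr1, the ligand-binding chain of the IFNγ receptor, had the highest median at 86.1 TPM over the 8 tumors, with a range of 58.9 to 103.2. Jak1, the kinase shared by both receptors, followed at 70.6 TPM (26.1 to 134.5), and Stat3 at 45.7 TPM (27.6 to 56.3). These genes were the top 3 of the 9 in 7 of 8 tumors. The exception was ΔAgo2-labelled tumor 1, where Ifngr2 at 46.0 TPM lay above Jak1 at 34.4 TPM and Stat3 at 27.6 TPM. The other 6 genes had medians between 19.8 and 39.1 TPM, in the order Ifngr2, Ifnar2, Stat2, Ifnar1, Jak2 and Tyk2. The ranges of neighbours in this order overlapped at every step, whereas those of Ifngr1 and Stat3 did not.

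**Figure D1:**
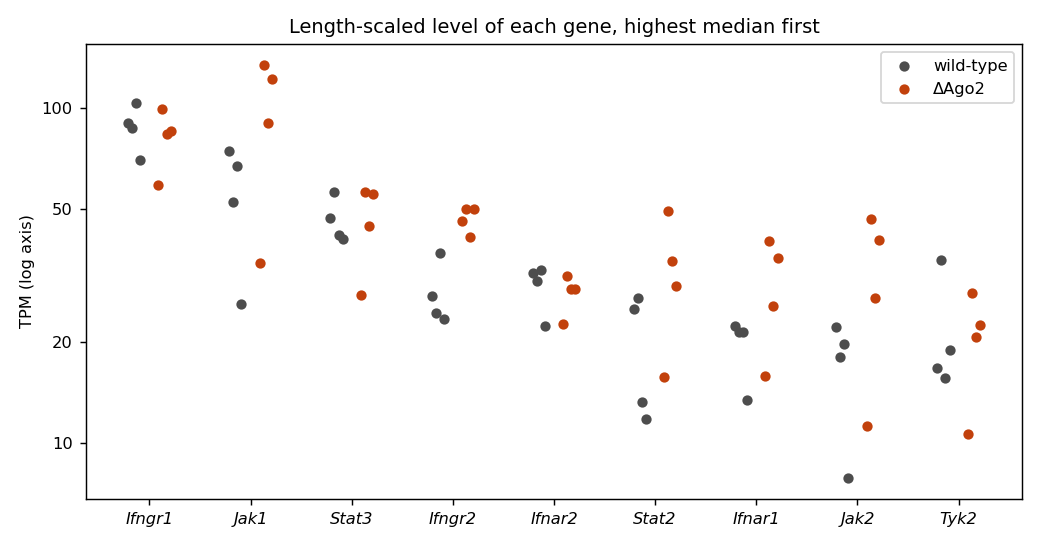
Each point is 1 tumor, with the gene on the horizontal axis in order of its median and its level in TPM on a log vertical axis; grey is wild-type and orange is labelled ΔAgo2. Ifngr1 runs from 58.9 to 103.2 TPM, and the lowest value is Jak2 in wild-type tumor 4 at 7.87 TPM.

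The first question was whether the signaling core itself differed between tumor genotypes. None of the 9 genes passed the edgeR quasi-likelihood test at an adjusted p of 0.05, with adjusted p-values from 0.151 (Ifngr2) to 0.419 (Tyk2). Over all 16061 genes tested, 560 passed (3.49%), of which 219 were higher (1.36%) and 341 lower (2.12%) in ΔAgo2-labelled tumors. At an unadjusted p under 0.05 there was 1 of the 9 genes, Ifngr2, against 26.7% of all genes, while DESeq2 called 0 of the 9 (12.4% of all genes it tested) and limma voom with sample quality weights called 4 (27.9% of all genes). The fold changes were spread on both sides of no change: 5 lay above 0 and 4 below, with a median of 0.32 on the log2 scale against 0.04 for all genes tested. They fell between the 27.7 and the 80.6 percentile of all log2 fold changes. A missed threshold does not show equal levels: the intervals of 2 SE reached from -0.93 for Tyk2 to 1.23 for Jak2.

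The IFNγ receptor chains stood on opposite sides of no change. Ifngr2 (chr16:91547072-91565623), the signal-transducing chain that carries JAK2, was at 36.4, 32.3, 48.3 and 44.0 CPM across the wild-type tumors. It was at 79.0, 51.5, 49.3 and 55.3 CPM across the ΔAgo2-labelled tumors. All 4 ΔAgo2-labelled tumors lay above all 4 wild-type tumors, by the narrow gap between 48.3 and 49.3 CPM, and the groups were separate in TPM too, at 23.5 to 36.9 against 41.2 to 50.1. The mean was 40.3 ± 7.21 (SD, n = 4) against 58.8 ± 13.7 CPM, a log2 fold change of 0.55 (SE 0.22, edgeR adjusted p = 0.151). ΔAgo2-labelled tumor 1, with the highest summed macrophage markers (mostly C1q genes), also held the highest value. Without that tumor the log2 fold change was 0.36 (adjusted p = 0.174).

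Ifngr1 (chr10:19591949-19610229) was at 90.1, 87.1, 102.0 and 98.8 CPM across the wild-type tumors and at 76.5, 77.3, 75.6 and 71.3 CPM across the ΔAgo2-labelled tumors. Every ΔAgo2-labelled tumor lay below every wild-type tumor, and the spread within each group was small, at 94.5 ± 7.06 against 75.1 ± 2.68 CPM (SD, n = 4). The log2 fold change of -0.33 (SE 0.16) had an edgeR adjusted p of 0.215. In TPM the groups overlapped, at 69.9 to 103.2 against 58.9 to 99.4.

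The type I IFN receptor chains also diverged in sign. Ifnar2 (chr16:91372783-91405589), the chain that binds type I IFN with high affinity, was at 37.5, 35.7, 37.9 and 37.0 CPM across the wild-type tumors. It was at 34.4, 28.7, 30.5 and 28.2 CPM across the ΔAgo2-labelled tumors, below every wild-type tumor. The log2 fold change was -0.28 (SE 0.17, edgeR adjusted p = 0.302), and in TPM the groups overlapped, at 22.4 to 32.8 against 22.7 to 31.6. Ifnar2 shares 13869 bases with the gene model Gm21970 on the same strand, which had 0 counts, and how reads in that overlap were assigned was not stated, so its level is uncertain.

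Ifnar1 (chr16:91485238-91507441), the chain that carries TYK2, was at 46.6, 44.8, 44.2 and 39.6 CPM across the wild-type tumors. Across the ΔAgo2-labelled tumors it was at 43.0, 65.1, 48.3 and 62.5 CPM. Tumors 2, 3 and 4 lay above all wild-type tumors and tumor 1 lay among them, for a log2 fold change of 0.32 (SE 0.19, edgeR adjusted p = 0.303). Among the 9 genes, 1 (Ifngr2) had groups that did not overlap with the ΔAgo2-labelled tumors higher, against 8.05% of all genes tested. There were 2 (Ifnar2 and Ifngr1) with the ΔAgo2-labelled tumors lower, against 8.36% of all genes tested.

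**Figure D2:**
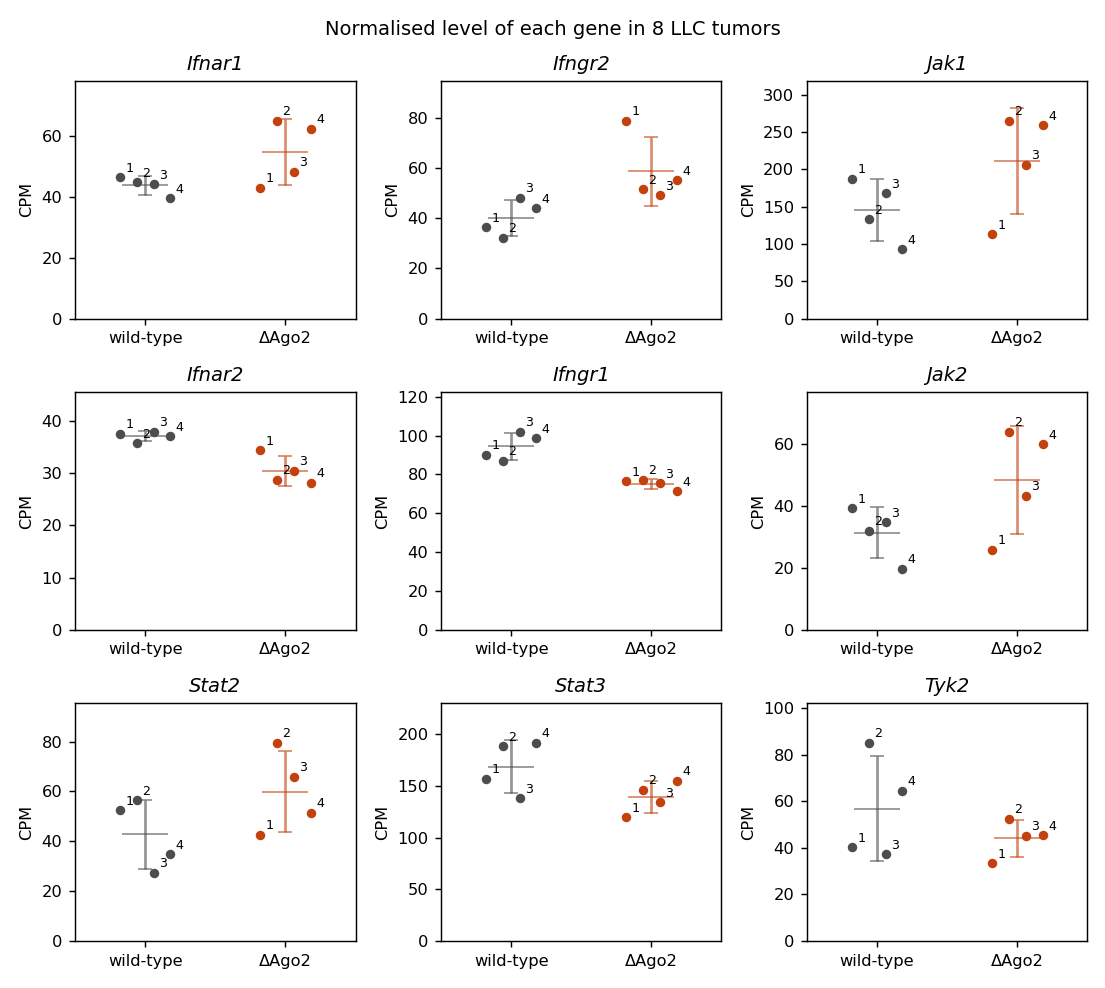
Each panel shows 1 gene, with the level in CPM on a vertical axis from 0 and 1 numbered point per tumor; horizontal lines are group means and bars are the SD over 4 tumors. Ifngr2 is separated upward and Ifnar2 and Ifngr1 downward, while the other 6 genes overlap between genotypes.

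Within a tumor, the balance of the receptor chains could be followed without scaling between libraries. The log2 CPM of Ifngr2 minus that of Ifngr1 was -1.30, -1.43, -1.08 and -1.17 across the wild-type tumors and 0.05, -0.58, -0.62 and -0.37 across the ΔAgo2-labelled tumors. These groups did not overlap, which is a description, since the pair was compared with its separate values already known. Ifnar1 minus Ifnar2 was 0.10 to 0.33 in wild-type tumors, whereas 3 of 4 ΔAgo2-labelled tumors lay between 0.67 and 1.18 and tumor 1 stood at 0.32.

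Ifnar2, Ifnar1 and Ifngr2 lie side by side on chromosome 16 with Il10rb, a receptor chain for IL-10 and IFN-lambda, between them, in a stretch of 192.8 kb (GRCm38). Il10rb was at 25.7 ± 2.05 and 26.2 ± 4.80 CPM (SD, n = 4), a log2 fold change of 0.03 (SE 0.20, edgeR adjusted p = 0.945). The order along the chromosome was thus Ifnar2 at -0.28, Il10rb at 0.03, Ifnar1 at 0.32 and Ifngr2 at 0.55, with none of the 4 past the threshold.

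The kinases overlapped between genotypes. Jak1 (chr4:101152367-101265282) was at 187.9, 133.4, 168.4 and 93.5 CPM across the wild-type tumors and at 113.2, 265.5, 206.6 and 259.7 CPM across the ΔAgo2-labelled tumors. Tumors 2, 3 and 4 labelled ΔAgo2 lay above all wild-type tumors, and tumor 1 lay below 3 of them. The log2 fold change was 0.53 (SE 0.30, edgeR adjusted p = 0.273).

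Jak2 (chr19:29251828-29313080), the kinase bound to IFNGR2, followed the same pattern. Its level was 39.2, 32.0, 34.6 and 19.6 CPM across the wild-type tumors and 25.8, 63.9, 43.2 and 59.9 CPM across the ΔAgo2-labelled tumors, with a log2 fold change of 0.62 (SE 0.31, edgeR adjusted p = 0.223). Over the 8 tumors the log2 CPM of Jak1 and Jak2 moved together, with a Pearson r of 0.987, given as a description because the tumors share genotype and base composition trends. ΔAgo2-labelled tumor 1 had the highest summed macrophage markers (mostly C1q genes) and the lowest summed fibroblast markers (mostly Col3a1) of the 8. Without it, the log2 fold changes were 0.73 for Jak1 (adjusted p = 0.0699) and 0.81 for Jak2 (adjusted p = 0.0602). The part of cell composition in these values was not tested.

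Tyk2 (chr9:21104068-21131243), the kinase bound to IFNAR1, was at 40.3, 85.1, 37.2 and 64.5 CPM across the wild-type tumors. It was at 33.3, 52.5, 45.1 and 45.6 CPM across the ΔAgo2-labelled tumors, inside the wild-type range except for tumor 1. Its log2 fold change of -0.36 (SE 0.28, edgeR adjusted p = 0.419) was the only one of the 9 to change sign with the processing. It became 0.14 after the GC trend of each library was removed and 0.08 under voom. It rested largely on wild-type tumor 2, the highest of the 8, without which it was -0.09 (adjusted p = 0.861). Tyk2 overlaps the antisense gene 1700084C06Rik, which had 175 counts in all, and the strand setting of the counting was not stated.

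Base composition ran along with these differences. Across 16059 genes, the log2 fold change had a Spearman correlation of -0.561 with the GC content of the longest transcript, given as a description because genes are not independent. Jak2 had the lowest GC content of the 9, at 44.3%, and Tyk2 the highest, at 57.0%, against a median of 49.8% for all genes tested. After removal of the trend, the log2 fold change of Jak2 was 0.18 (SE 0.22, edgeR adjusted p = 0.678) and that of Jak1 0.33 (adjusted p = 0.448). Values for the receptor chains moved less, to 0.27 for Ifnar1, -0.31 for Ifnar2, 0.48 for Ifngr2 and -0.49 for Ifngr1, the last with an adjusted p of 0.0837.

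**Figure D3:**
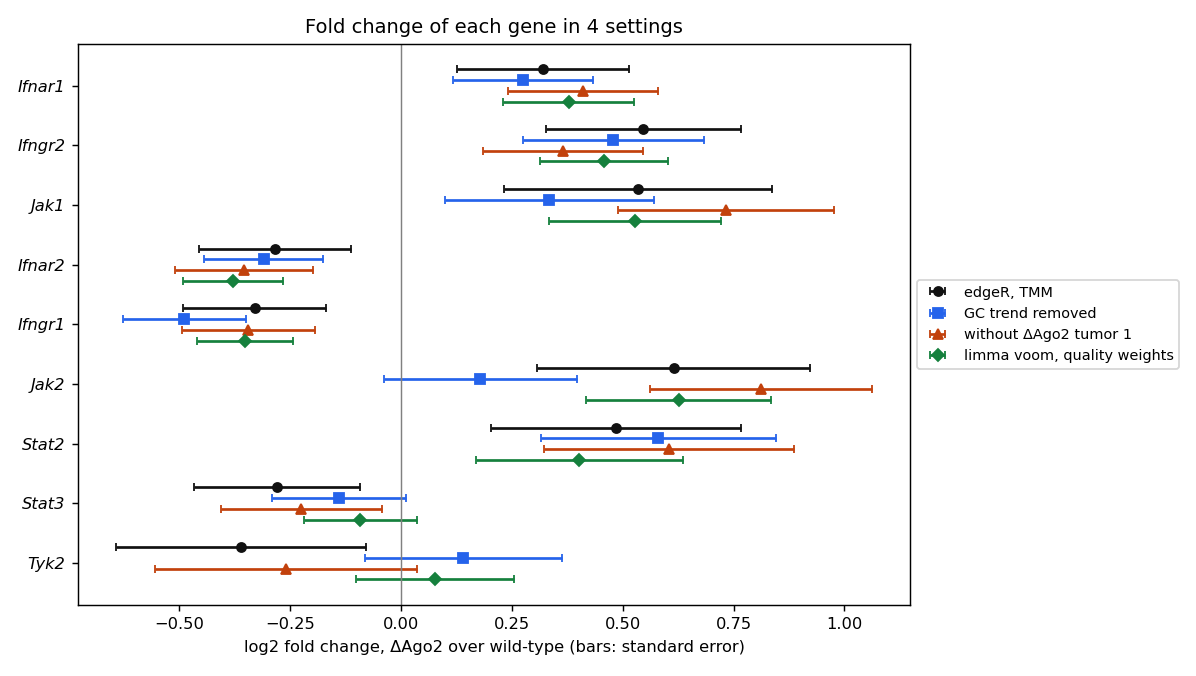
For each gene the horizontal axis gives the log2 fold change of ΔAgo2-labelled over wild-type tumors in 4 settings (edgeR with TMM, GC trend removed, without ΔAgo2-labelled tumor 1, and limma voom with quality weights), and bars are the SE. Tyk2 changes side between -0.36 and 0.14, and Jak2 moves from 0.62 to 0.18 when the GC trend is removed.

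The STATs differed in sign. Stat2 (chr10:128270559-128292849), the STAT particular to type I and lambda IFN signaling, whose promoter stretch is printed above, was at 52.4, 56.5, 27.3 and 34.7 CPM across the wild-type tumors. It was at 42.6, 79.4, 65.9 and 51.4 CPM across the ΔAgo2-labelled tumors, so that the groups overlapped. The log2 fold change was 0.48 (SE 0.28, edgeR adjusted p = 0.286), and 0.58 after the GC correction (adjusted p = 0.241). It was 0.30 without ΔAgo2-labelled tumor 2 (adjusted p = 0.597) and 0.32 without wild-type tumor 3 (adjusted p = 0.447). Stat3 (chr11:100885098-100939540) was at 157.1, 188.3, 137.9 and 191.6 CPM across the wild-type tumors and at 119.8, 146.3, 134.4 and 155.2 CPM across the ΔAgo2-labelled tumors. Its log2 fold change was -0.28 (SE 0.19, edgeR adjusted p = 0.347), and -0.14 after the GC correction. Within a tumor, Stat2 minus Stat3 in log2 CPM ran from -2.46 to -1.58 in wild-type tumors and from -1.59 to -0.88 in ΔAgo2-labelled tumors, overlapping at the edge.

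Set against the receptors and kinases, the STATs did not stand apart. The median log2 fold change was 0.32 for the 7 receptors and kinases and 0.10 for the 2 STATs, a difference of -0.22 that rests on 2 genes of opposite sign and became 0.04 after the GC correction. The mean log2 CPM of the STATs minus that of the receptors and kinases was 0.70, 0.89, 0.13 and 0.71 across the wild-type tumors and 0.49, 0.67, 0.70 and 0.46 across the ΔAgo2-labelled tumors. The group means of 0.61 ± 0.33 and 0.58 ± 0.12 (SD, n = 4) differed by less than the spread within either group.

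**Figure D4:**
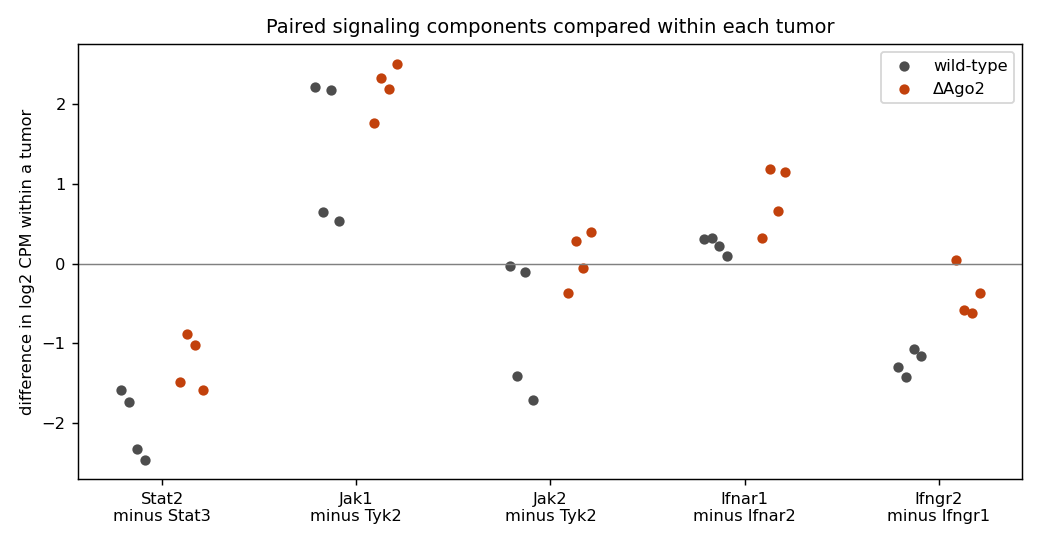
The vertical axis gives the difference in log2 CPM between the members of a pair inside 1 tumor, with 1 point per tumor, grey for wild-type and orange for labelled ΔAgo2. Only Ifngr2 minus Ifngr1 separates the genotypes, at -1.43 to -1.08 against -0.62 to 0.05.

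The genes around the core were described from lists. IFN transcripts were barely detected, and none of the 20 IFN genes listed passed the count filter. Ifng, which encodes IFNγ, had 6, 2, 9 and 5 counts across the wild-type tumors, or 0.112, 0.0953, 0.189 and 0.717 CPM. It had 35, 20, 6 and 29 counts across the ΔAgo2-labelled tumors, or 0.718, 0.176, 0.179 and 0.102 CPM. The groups overlapped, with means of 0.278 and 0.294 CPM. The other 19 IFN genes had 34 counts together, and Ifnb1 had 0 in all wild-type tumors and 3 in each of ΔAgo2-labelled tumors 2 and 4, the deepest libraries. A count of 0 allows up to 0.43 CPM in the shallowest library and 0.0105 CPM in the deepest, for counting error only. No IFN gene was tested between genotypes.

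Irf9, the partner of STAT2 in ISGF3, was at 44.3, 29.5, 28.0 and 15.8 CPM across the wild-type tumors and at 52.2, 52.6, 52.7 and 42.7 CPM across the ΔAgo2-labelled tumors. The groups overlapped by 1 tumor, and the log2 fold change was 0.76 (SE 0.28, edgeR adjusted p = 0.124). Of 5 other JAK and STAT genes none passed, with a median of -0.18. Stat6, which serves IL-4, was at 0.08, Stat5b at -0.18 and Jak3, the kinase of the common gamma chain, at -0.79 (adjusted p = 0.138).

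The genes listed as ISGF3 targets were all on the higher side in the edgeR comparison, though control by ISGF3 was not measured. Of 25 such genes tested, 3 rose in ΔAgo2-labelled tumors and 0 fell, against 1.36% and 2.12% of all genes tested. All 25 had a log2 fold change above 0 (24 with upper quartile scaling, 23 under voom), and the median was 1.14 against 0.04 for all genes tested. Under voom the median was 0.64. Leaving out wild-type tumor 3, which stood apart in muscle and keratinocyte markers, gave 24 of 25 above 0, a median of 1.01 and 3 called (363 of all 16431 genes rose). Leaving out ΔAgo2-labelled tumor 1 gave 24 above 0, a median of 1.09 and 7 called (979 of all 16301 genes rose). The part of keratinocytes and fibroblasts in these values was not tested. Rsad2, an antiviral enzyme, went from 14.4 ± 8.49 to 58.8 ± 13.4 CPM (SD, n = 4), a log2 fold change of 2.01 (SE 0.36, edgeR adjusted p = 0.0177). Oas2, which makes the activator of RNase L, had 1.61 (adjusted p = 0.0435) and Zbp1, a sensor of Z-form nucleic acid, 1.32 (adjusted p = 0.0278). In 11 of the 25 the groups did not overlap with ΔAgo2-labelled tumors higher, against 8.05% of all genes tested. The study picked 7 of the 25 for a signature on these same tumors, so the list is not independent evidence of its direction. The test called 0 of the 25 without wild-type tumor 2, where 26 of all 16441 genes rose. It also called 0 without ΔAgo2-labelled tumor 2 (42 of 16279) and without ΔAgo2-labelled tumor 3 (51 of 16516), so few genes of any kind rose in these fits. Without wild-type tumor 1 it called 12 (255 of all 16307 genes rose). Without wild-type tumor 4 it called 1 (77 of 16492) and without ΔAgo2-labelled tumor 4 it called 2 (20 of 16281).

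Of 16 genes that IFNγ is known to induce, 2 rose (against 1.36% of all genes tested) and 11 lay above 0, with a median of 0.62. Cd274, which encodes PD-L1, was at 8.75 to 9.96 CPM in wild-type and 16.6 to 24.9 CPM in ΔAgo2-labelled tumors, a log2 fold change of 1.08 (SE 0.21, edgeR adjusted p = 0.0244), and 0.68 (adjusted p = 0.0952) after the GC correction. Gbp3, a guanylate-binding protein, had 1.45 (adjusted p = 0.0439), whereas Irf1 stood at 0.12, Tap1 at 0.24 and Cd74 at -0.19. The study's signature holds 2 of the 16. Without ΔAgo2-labelled tumor 1 the median was 0.18 and 8 of 16 lay above 0. In that fit 2 of the 16 rose, where 979 of all 16301 genes did. That tumor also held the highest summed markers of T and NK cells, at 42.6 CPM against 8.32 to 21.8 CPM in the other tumors. The part of these cells in the values was not tested. No gene of the 16 was called without wild-type tumor 2, where 26 of all 16441 genes rose. None was called without ΔAgo2-labelled tumor 2 (42 of 16279), 3 (51 of 16516) or 4 (20 of 16281). The count was 1 without wild-type tumor 3 (363 of 16431) and 1 without wild-type tumor 4 (77 of 16492). It was 3 without wild-type tumor 1 (255 of 16307).

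Of 7 STAT3-activating cytokines tested, 2 fell (against 2.12% of all genes tested), and the other 5 did not pass. Il11, an IL-6 family cytokine, was at 6.13, 6.25, 8.16 and 10.9 CPM across the wild-type tumors and at 0.944, 0.956, 1.46 and 1.04 CPM across the ΔAgo2-labelled tumors. The groups lay far apart, with a log2 fold change of -2.83 (SE 0.32, edgeR adjusted p = 0.00215), and Il11 was called without each tumor in turn. Csf3, which encodes G-CSF, was at 2.21, 1.72, 6.45 and 13.9 CPM across the wild-type tumors against 0.431 to 0.767 CPM, a log2 fold change of -3.21 (SE 0.64, adjusted p = 0.0272). Its adjusted p reached 0.0878 when a single tumor was left out, and it was not called without ΔAgo2-labelled tumor 2, 3 or 4. The sums of fibroblast markers, mostly Col3a1, did not overlap between genotypes either, and the part of fibroblasts in these cytokine values was not tested. Lif stood at -0.96 (adjusted p = 0.0708), and the median of the 7 was -0.95.

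Of 12 receptors that activate STAT3, none passed, 6 lay above 0 and the median was 0.01. The most abundant were Il6st, the shared signaling chain gp130, at 0.53 (edgeR adjusted p = 0.225), Pdgfra at 0.68 (0.165) and Il6ra at 0.89 (0.0712). Of 18 STAT3 target genes, 1 rose and 0 fell, against 1.36% and 2.12% of all genes tested. Among them 4 lay above 0 and the median was -0.41, which became -0.18 with 7 above 0 after the GC correction. Calls depended on the setting. DESeq2 called 4 lower and 1 higher, against 1123 lower and 1097 higher of all 17875 genes it tested. Voom called 6 lower and 2 higher, against 2083 and 2393 of 16061. Without ΔAgo2-labelled tumor 1 the calls were 3 lower and 1 higher, against 814 and 979 of 16301, and the median was -0.68. The gene that rose was Ccnd1, the cell cycle gene for cyclin D1, from 402.1 ± 26.3 to 670.4 ± 46.6 CPM (SD, n = 4), a log2 fold change of 0.74 (SE 0.18, edgeR adjusted p = 0.0488). It was called without ΔAgo2-labelled tumor 1 (adjusted p = 0.0314) but in none of the 7 fits that left out another tumor. It was also not called with upper quartile scaling, DESeq2 size factors, no count filter, equal depth, any replicate block or limma on TPM. Myc stood at -0.50, Junb at -0.83 and Mcl1 at 0.41.

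None of 15 inhibitors of the pathway passed in edgeR, 6 lay above 0 and the median was -0.36, which became -0.14 after the GC correction and -0.16 without wild-type tumor 4. DESeq2 called 2 higher and 2 lower, where it called 12.4% of all genes it tested. Voom called 1 higher and 3 lower, where it called 27.9% of all genes. With no count filter edgeR called 2 higher, against 515 of all 30344 genes. Socs3, the feedback inhibitor induced by STAT3, was at 119.8, 160.8, 131.0 and 231.5 CPM across the wild-type tumors and at 86.2, 82.5, 99.8 and 100.2 CPM across the ΔAgo2-labelled tumors. The groups did not overlap, and the log2 fold change was -0.80 (SE 0.23, edgeR adjusted p = 0.0770). Of the 15 inhibitors, 2 had groups that did not overlap with ΔAgo2-labelled tumors lower, against 8.36% of all genes tested. Another 2 did so with ΔAgo2-labelled tumors higher, against 8.05%. Ptpn1 and Ptpn11, phosphatases of the pathway, stood at -0.02 and 0.18. Usp18, the feedback inhibitor of the type I IFN receptor, named after its value was seen, stood at 1.43 (adjusted p = 0.0625).

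**Figure D5:**
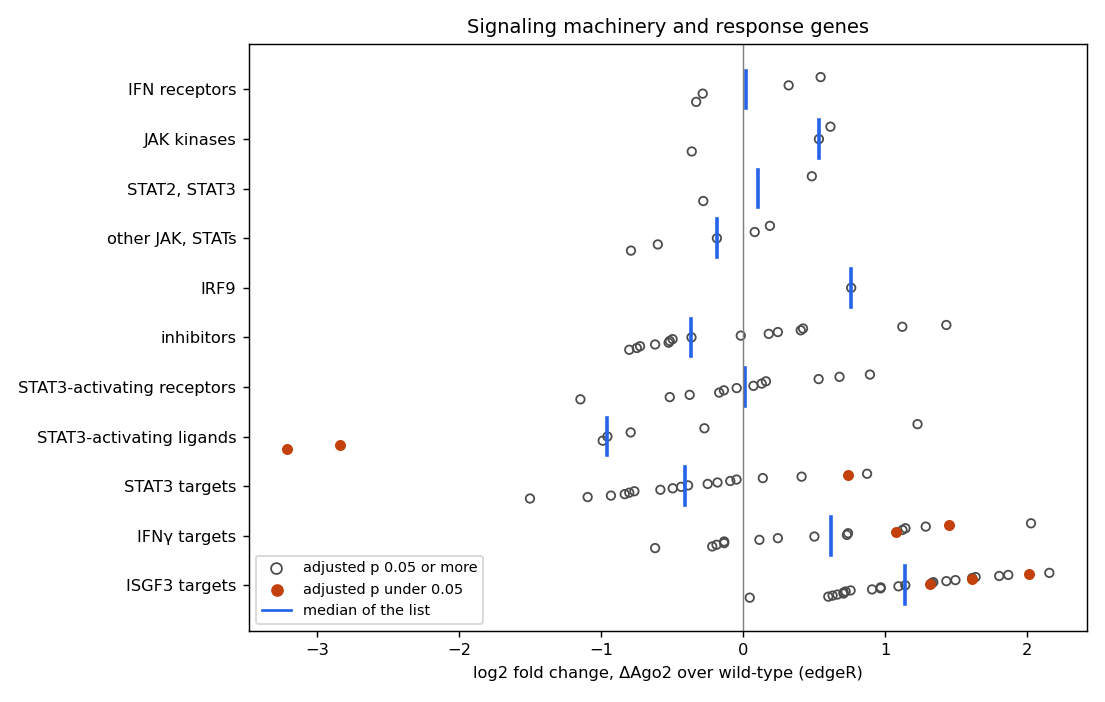
Each circle is 1 gene, with its edgeR log2 fold change of ΔAgo2-labelled over wild-type tumors on the horizontal axis and its list on the vertical axis; filled circles have an adjusted p under 0.05 and blue lines are list medians. All 25 ISGF3 targets lie above 0 (24 with upper quartile scaling, 23 under voom), the STAT3-activating ligands reach -3.21, and none of the 9 core genes is filled.

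The genes whose log2 CPM ran most like that of a core gene over the 8 tumors were ranked by Pearson r, as a description over tumors that share genotype, depth differences and GC trends. For Stat2 they were Oas3 (0.967), Mx2 (0.959), Il17ra (0.955), Znfx1 (0.954) and Nlrc5 (0.946). Oas3 and Mx2 belong to the ISGF3 target list and Nlrc5 to the IFNγ list. For Stat3 they were Map3k14 (0.977), Phf13, Hmgxb3, Chtf8 and E530011L22Rik (0.972), and for Ifnar1 Zfp101 (0.995), Jade1, Zfp800, Lpgat1 and Zfp397. The most alike gene was Gm43637 for Ifnar2 (0.988), Adora2b for Ifngr1 (0.981), Ralb for Ifngr2 (0.977), Cenpc1 for Jak1 (0.993), Stim2 for Jak2 (0.997) and Cdip1 for Tyk2 (0.987). Among the core genes, Ifnar1 ran with Jak2 (0.942) and Jak1 (0.896), Ifnar2 with Ifngr1 (0.866) and Tyk2 with Stat3 (0.862), whereas Ifnar1 and Ifnar2 ran opposite (-0.868).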

How the data were processed

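Tumor RNA was made into libraries with a stranded Illumina mRNA ligation kit and sequenced on a NovaSeq in paired-end mode. The authors deposited raw counts, whole numbers per gene with no normalization, and TPM values, which divide counts by gene length and scale each library to one total. The study's methods, written for cultured cells, name alignment to a ribosomal RNA database and to mm10 and counting with featureCounts, and the submitters' processing notes name STAR. Strand and multi-mapping settings for the gene counts are not given in the sources used here. Groups and replicate numbers came from sample titles and genotype labels. The labels do not say how libraries were divided over preparations, so p-values measure the spread between these tumors.

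Identifiers were matched to GENCODE M21 on GRCm38 (99.83% of 55487), and promoters to RefSeq. Counts were filtered with filterByExpr, scaled by TMM and compared with the quasi-likelihood test of edgeR 4.0.16 in R 4.3.3, without covariates; p-values were adjusted over 16061 genes by the Benjamini-Hochberg method, at 0.05. Log2 CPM used a prior count of 2. Depth ran from 7903288 to 268564145 counts, so low genes are least precise in wild-type tumor 4, and limits from counts of 0 cover counting error only.

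Alternatives were DESeq2 1.42.0 (the study's tool), limma 3.58.1 voom with quality weights, 3 other scalings, other count filters, thinning to equal depth, GC and length offsets fitted on genes averaging 50 counts or more, a replicate block, the removal of 1 tumor at a time, and limma on log2 TPM with a pseudocount of 1 or 0.1. The fit was tested on simulated counts. Named were Ago2, the 9 genes, every list gene past the threshold, up to 3 more of the highest mean CPM in lists with fewer than 3, and the genes most alike by Pearson r (5 for Stat2, Stat3 and Ifnar1, 1 otherwise). The 9 genes and the lists were chosen with earlier results of these data known. A further gene of the pathway is not reported here.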

Additional observations from a re-analysis of the deposited data

How the results depend on the processing

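None of the 9 genes was called in the edgeR comparison or in 23 of 24 alternatives. The exception was limma voom with quality weights, which called 4, namely Ifnar2 (-0.38, adjusted p = 0.0324), Ifngr1 (-0.35, 0.0372), Ifngr2 (0.46, 0.0385) and Jak2 (0.63, 0.0459). Of 216 fold changes over the alternatives, 209 kept their direction and side of the threshold. Those that turned were Tyk2 under voom (0.077), with the GC correction (0.14) and with the GC correction and replicate block together (0.12); the cause was not tested. The difference between the medians of STATs and of receptors and kinases ran from -0.35 (without wild-type tumor 3) to -0.12 (without wild-type tumor 2) and was 0.04 with the GC correction and 0.07 with the block added. Tumors of the same replicate number did not deviate together (correlations of -0.236, 0.103, -0.0448 and -0.290). These values cannot show how tumors were handled, and the labels do not say whether the numbers pair them. With the replicate block 0 of the 9 were called, Ifngr2 stood at 0.54 (edgeR adjusted p = 0.287) and 70 of all genes passed against 560. Over all genes the count was 2220 with DESeq2, 4476 with voom, 983 with no count filter, 1177 with the length correction, 148 with length and block, 313 with GC and block, 88 to 1793 without 1 tumor and 77 to 153 with limma on TPM. Of the 25 ISGF3 targets, 14 rose with DESeq2 (1097 of all 17875 genes did), 12 with no count filter (515 of 30344) and 9 with voom (2393 of 16061). With the length correction 8 rose (448 of 16061) and with the replicate block 0 (13 of 16061). Of the 7 STAT3-activating ligands, 4 fell with DESeq2 (1123 of 17875) and 1 (Il11) with the block (57 of 16061). The median of all fold changes was 0.16 with no filter, 0.21 on log2(TPM + 1) and 0.28 on log2(TPM + 0.1), so fold changes there are read relative to it. The 9 genes had at least 137 counts in a tumor, so depth limits the IFN transcripts more than the core.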
